A study of Homo sapiens with 18 samples.

Results

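Potassium channel genes were taken as the protein-coding genes on chromosomes 1 to 22 whose symbol begins with KCN, continues with letters and ends with a number. The rule found 93 genes among 19126 protein-coding genes. Their chromatin was described from ChIP-seq peak lists, made by sequencing DNA bound by an antibody's target, in the established triple-negative breast cancer line MDA-MB-231. The lists were those of KDM2B, MYC, trimethylated H3K4 (H3K4me3), ubiquitinated H2AK119 (H2AK119ub) and trimethylated H3K27 (H3K27me3) in parental cells, and of acetylated H3K27 (H3K27ac) in cells carrying an empty vector. Each list came from a group of 2 libraries, with 18 libraries in 9 groups in all, inputs and ATF4 included. The ATF4 libraries were not analysed here. No gene was targeted and no agent was given, so the groups differ by antibody and, for H3K27ac, by cell stock. The list of a target does not resolve its libraries, so no value below has a replicate error and no test between groups was made.

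Potassium channels let potassium ions leave or enter cells along their gradient and so set the resting membrane potential and end action potentials. Voltage-gated, calcium-activated, inwardly rectifying and two-pore-domain channels are built from separate families of pore subunits, and auxiliary subunits alter their gating or transport to the membrane. Many are best known from neurons, heart muscle, kidney or endocrine cells. Polycomb complexes keep genes of other tissues silent: PRC2 writes H3K27me3, and PRC1 writes H2AK119ub. KDM2B is a histone demethylase that binds unmethylated CpG dinucleotides and brings the PRC1 form ncPRC1.1 to them. MYC is a transcription factor of active promoters, H3K4me3 marks active and poised promoters, and H3K27ac marks active promoters and enhancers.

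On chromosomes 1 to 22 the lists held from 19831 peaks (KDM2B) to 298852 peaks (H3K27me3). A fold is the authors' enrichment of signal over background at a peak's summit, and folds of different lists cannot be set against each other. Depth is unknown, since the lists hold no counts. The labelled cell type was compared with marker genes. All 6 mesenchymal and basal markers examined, VIM, CD44, EGFR, AXL, FOSL1 and CAV1, had H3K4me3 and H3K27ac at an end. Among luminal markers ESR1 had no peak of any list at an end, while FOXA1 and ERBB3 had H3K4me3, H3K27ac and KDM2B. Of the neuron markers, RBFOX3 and ELAVL4 had both Polycomb marks alone, and SNAP25 had MYC, H3K4me3 and H3K27ac.

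Polycomb marks were at the ends of most potassium channel genes, and marks of active promoters at a minority. A target was counted at a gene when at least 1 bp of a peak lay within 1 kb of either end of the gene's record. H2AK119ub was at 70 of 93 genes, or 75.3% (95% Wilson interval 65.6 to 82.9), against 46.6% of all protein-coding genes. H3K27me3 was at 57, or 61.3% (51.1 to 70.6), against 27.1%. Both Polycomb marks were at 54 genes, or 58.1%, against 22.2%. H3K4me3 was at 41, or 44.1% (34.4 to 54.2), against 70.1%. MYC was at 28, or 30.1% (21.7 to 40.1), against 65.0%, H3K27ac at 23, or 24.7% (17.1 to 34.4), against 64.4%, and KDM2B at 22, or 23.7% (16.2 to 33.2), against 48.3%. The intervals cover counting error only, and they treat genes as independent, which neighbours in shared H3K27me3 domains are not. With each list kept to its top 15000 peaks by fold, H2AK119ub was at 28.0% of channel genes and 11.2% of all genes, H3K27me3 at 23.7% and 6.63%, and H3K27ac at 6.45% and 48.1%. Leaving out peaks within 1 kb of another gene's end brought the H3K4me3 shares closer, to 37.6% of channel genes and 47.0% of all genes. Since H3K27ac came from the empty-vector stock, its overlap with any other target is between cell stocks, and the part of the stock in it cannot be told apart.

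**Figure D1:**
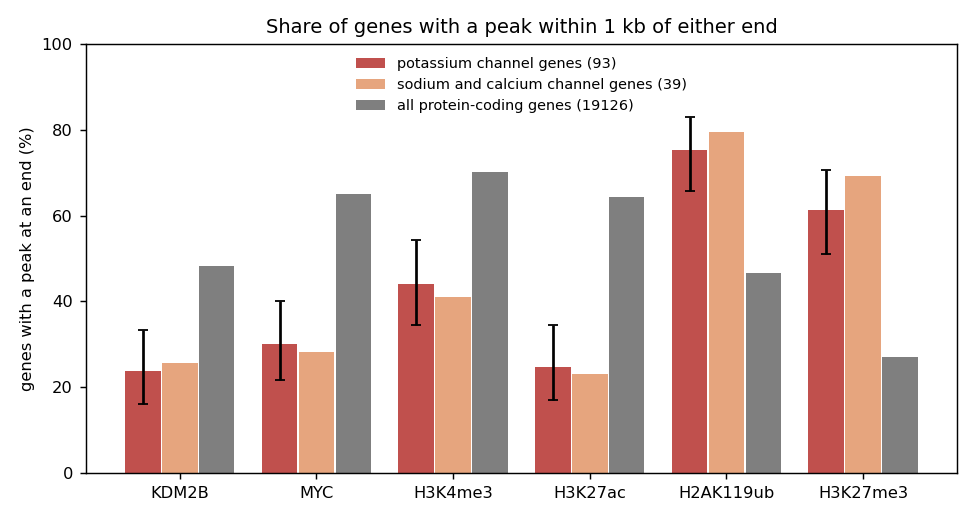
Percent of genes (vertical axis) with a peak of each target (horizontal axis) within 1 kb of either end, for 93 potassium channel genes, 39 sodium and calcium channel genes and all 19126 protein-coding genes; error bars are 95% Wilson intervals of the potassium channel shares. The potassium channel bars are lower than those of all genes for KDM2B, MYC, H3K4me3 and H3K27ac and higher for H2AK119ub (75.3% against 46.6%) and H3K27me3 (61.3% against 27.1%).

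Where a potassium channel gene had a peak, its place in the list differed by mark. For each gene the highest fold at an end was ranked among all genes with that target at an end. The median percentile was 10.7 for H3K4me3, 7.79 for H3K27ac, 20.0 for MYC and 34.8 for KDM2B. It was 64.2 for H2AK119ub and 63.1 for H3K27me3. The median H3K4me3 fold was 16.3 in the channel genes that had it and 43.4 over all genes that had it. The median H3K27ac folds were 4.73 and 25.1, while those of H3K27me3 were 3.99 and 3.51.

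Combinations of targets fell into a few classes. The commonest was both Polycomb marks and none of the other 4 targets, at 28 genes (30.1%, against 12.5% of all genes). It held KCNA1 to KCNA6 and KCNA10, KCNH2, KCNQ1, KCNMA1, KCNK5 and KCNIP1 among others. No list had a peak at an end of 17 genes (18.3%, against 9.09%). With peaks within 1 kb of another gene's end left out, the share of genes without a peak was 18.3% among channel genes and 21.0% over all genes, so the order of that share turned. With both ends of a gene counted together, all 6 targets were at 9 genes (9.68%, against 2.60%), among them KCNAB2, KCNC4, KCNG3, KCNH6, KCNK6, KCNK15, KCNN1 and KCNS3. The 6 were not always at 1 end: at KCNAB2, KCNC4 and KCNG3 KDM2B was at the start and H3K27me3 at the far end only. KDM2B, MYC, H3K4me3 and H3K27ac without a Polycomb mark, the class of 27.1% of all genes, was found at KCNK1 alone. H3K4me3 and H3K27me3 were both present, at the same or opposite ends, at 26 genes (28.0%, against 9.85%).

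**Figure D2:**
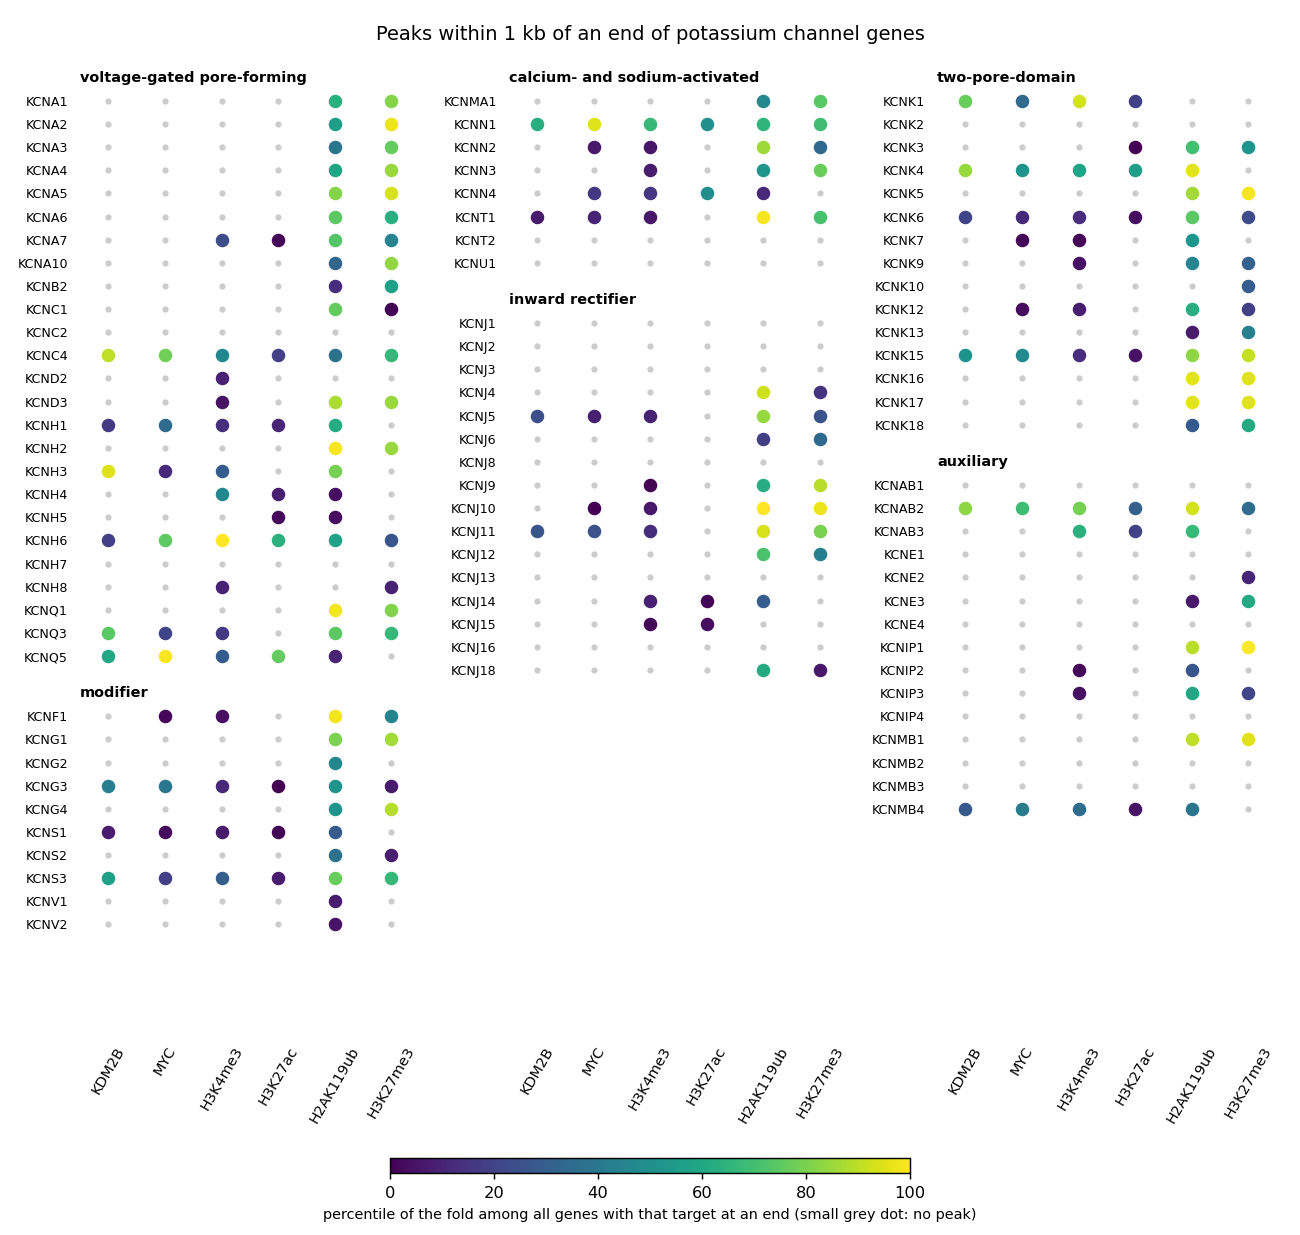
Each row is 1 of 89 potassium channel genes, grouped by role, and each column a target; a coloured dot stands for a peak within 1 kb of an end, with the colour giving the percentile of its fold among all genes with that target at an end, and a small grey dot for no peak. H2AK119ub and H3K27me3 fill the columns at the right for KCNA1 to KCNA10, while most rows have no KDM2B or MYC dot.

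All 22 channel genes with KDM2B at an end also had MYC and H3K4me3 there, as did 99.4% and 99.5% of all genes with KDM2B. They differed from all genes with KDM2B in their Polycomb marks, which were also common over all 93 channel genes (H2AK119ub 75.3%, H3K27me3 61.3%). H2AK119ub was at 21 of the 22 (95.5%), against 42.1% of all genes with KDM2B, and KCNK1 was the exception. H3K27me3 was at 15 (68.2%), against 9.20%, and H3K27ac at 15 (68.2%), against 96.2%. When a mark had to be at the same end as KDM2B, H2AK119ub was at 20 of 22 (90.9%, against 28.6%) and H3K27me3 at 10 (45.5%, against 4.85%). Peak by peak, 19 of the 28 KDM2B peaks at channel gene ends overlapped an H2AK119ub peak (67.9%, against 21.5% of KDM2B peaks at the ends of all genes). An H3K27me3 peak was overlapped by 9 of the 28 (32.1%, against 2.85%), and each of these 9 also overlapped H2AK119ub. These differences were not tested.

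The 41 channel genes with H3K4me3 at an end were compared with all genes that had it. H2AK119ub was at 37 (90.2%, against 43.2%) and H3K27me3 at 26 (63.4%, against 14.0%). H3K27ac was at 21 (51.2%, against 89.7%), MYC at 28 (68.3%, against 91.3%) and KDM2B at 22 (53.7%, against 68.6%). H3K4me3 without either Polycomb mark was at KCNK1, KCNJ15 and the A-type channel gene KCND2, of which KCND2 had no other target at an end.

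The KDM2B folds at gene ends were highest at genes of several roles. KCNH3, which encodes a channel of the forebrain, had 6.23 in a peak at 49537545 to 49538948 on chromosome 12, below the lower end of its record at 49539030. KCNC4, which encodes a channel of fast-spiking cells, had 5.65 at 110210190 to 110211548 on chromosome 1, over its start. KCNK4, which encodes a mechanosensitive leak channel, had 5.22, but that peak lay at the far end from its start and within 1 kb of CATSPERZ. KCNAB2, which encodes a beta subunit of Kv channels, had 5.15 at its start, in a peak within 1 kb of NPHP4 as well. The leak channel gene KCNK1 had 4.82, KCNQ3, for a subunit of the neuronal M-current, 4.73, and KCNN1, for a small-conductance calcium-activated channel, 4.31, beside ARRDC2 at the far end (2.76 at its start). Behind KCNQ5, another M-current gene with 4.20, came KCNS3 with 4.14 and KCNK15 with 3.95. KCNH3 stood at percentile 94.8 among all genes with KDM2B, and the lowest KDM2B fold at an end of a channel gene was 2.48.

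A RefSeq start with its strand was found for 69 of the 93 genes, and for these the start could be told from the other end. KDM2B was within 1 kb of a start of 14 (20.3%, against 51.7% of all genes with a start), MYC of 19 (27.5%, against 67.0%) and H3K4me3 of 30 (43.5%, against 71.4%). H3K27ac was at 16 (23.2%, against 66.2%), H2AK119ub at 49 (71.0%, against 35.6%) and H3K27me3 at 32 (46.4%, against 20.8%). Some high folds belonged to the far end. The highest H3K4me3 fold at a channel gene end, 79.6 at KCNH6, was in a peak within 1 kb of DCAF7, and KCNH6 had neither KDM2B, MYC, H3K4me3 nor H3K27ac at its start. The MYC fold of 33.0 and H3K27ac fold of 25.1 at KCNN1 lay beside ARRDC2, and neither target was at a KCNN1 start. In the other direction, KDM2B was at internal starts of KCNN2 (fold 5.73), KCNIP3 (3.90) and KCNIP2 (2.70), which had none at an end of the record. Some genes without any peak at an end had other targets at an internal start. These were H3K4me3 at KCNMB3 (23.6), KCNK2 (12.7, with MYC of 3.45) and KCNIP4 (4.28), and H3K27ac at KCNE1 (5.19).

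The 13 genes with KDM2B at the outermost known start showed 3 arrangements. KCNK1 had MYC, H3K4me3 and H3K27ac there and no Polycomb mark. H2AK119ub without H3K27me3 was at KCNAB2, KCNC4, KCNG3, KCNH1, KCNIP3 and KCNQ5, and all 6 also had MYC and H3K27ac there. Both Polycomb marks were at KCNJ5, KCNK6, KCNN1, KCNN2, KCNS3 and KCNT1. H3K27ac was listed at 2 of these 6, KCNK6 (fold 2.76) and KCNS3 (4.73). H2AK119ub was thus at 12 of 13 starts with KDM2B, or 92.3%, against 25.2% over all genes, H3K27me3 at 6, or 46.2%, against 3.75%, and H3K27ac at 9, or 69.2%, against 96.5%. MYC was at 12, with KCNN1 the exception.

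Role group counts stand beside the shares of all genes: H2AK119ub 46.6%, H3K27me3 27.1%, H3K4me3 70.1%, MYC 65.0%, H3K27ac 64.4% and KDM2B 48.3%. Voltage-gated pore subunits, which open on depolarisation, were the largest role group with 29 genes. H2AK119ub was at 25, H3K27me3 at 21, H3K4me3 at 14, KDM2B at 9, MYC at 9 and H3K27ac at 8. The KCNA genes, of the Shaker family that shapes action potentials, had both Polycomb marks at 8 of 8 and KDM2B and MYC at 0. KCNA7 alone among them had H3K4me3 and H3K27ac at an end. H3K27me3 folds of this family ran from 3.33 at KCNA7 to 6.43 at KCNA2. All 5 KCNQ genes had H2AK119ub, and KCNQ3 and KCNQ5 had KDM2B, MYC and H3K4me3 as well. KCNQ5 had the highest MYC fold of all channel genes at an end, 47.2, with H3K27ac of 41.2, H3K4me3 of 35.8 and H2AK119ub of 2.17, and no H3K27me3. The cardiac gene KCNQ1, which makes the slow repolarising current with KCNE1, had H2AK119ub of 4.71 and H3K27me3 of 4.84 at an end and no other target there. KCNH2, which makes the rapid cardiac repolarising current, had H2AK119ub of 4.84 and H3K27me3 of 5.08 and no other target. KCNC4 had H3K4me3 of 42.5 and KCNH4 one of 42.4, the latter with RAB5C at the same peak. KCNC2 and KCNH7 had no peak at an end.

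The 10 modifier subunits of the KCNF, KCNG, KCNS and KCNV families form no channel alone and change the gating of Kv partners. H2AK119ub was at all 10, H3K27me3 at 6, H3K4me3 and MYC at 4, and KDM2B and H3K27ac at 3. KDM2B was at KCNS3, KCNG3 and KCNS1, with H3K4me3 folds of 36.4, 18.2 and 8.83. The peak of KCNG3 was also within 1 kb of MTA3. KCNF1 had an H2AK119ub fold of 4.75, percentile 98.3 of that list, with H3K4me3 of 3.44 and no KDM2B. KCNG2, KCNV1 and KCNV2 had H2AK119ub and nothing else at an end.

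Genes of the KCNMA, KCNN, KCNT and KCNU families numbered 8. They were grouped by family as calcium- and sodium-activated channels, and the label need not hold for each gene. H2AK119ub was at 6, H3K4me3 and H3K27me3 at 5, MYC at 4, and KDM2B and H3K27ac at 2. KCNT1, for a sodium-activated channel, had H2AK119ub of 4.90, H3K27me3 of 4.31 and KDM2B of 2.71 in a peak within 1 kb of SOHLH1. KCNN4, for the calcium-activated channel of epithelial and blood cells, had H3K4me3 of 26.5, MYC of 5.67 and H2AK119ub of 2.21, with no KDM2B and no H3K27me3. Its H3K27ac fold was 24.6 at the far end and 18.8 at the start. KCNN3 had H3K4me3 of 9.10 with H3K27me3 of 4.62. KCNMA1, the pore of the large-conductance calcium-activated channel, had Polycomb marks alone at its ends. Away from its ends, a RefSeq start of KCNMA1 had H3K27ac of 15.5, MYC of 3.16 and H3K4me3 of 2.66. KCNT2 and the sperm channel gene KCNU1 had no peak there.

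Inward rectifiers, which hold the membrane near the potassium equilibrium potential, numbered 16. They had H2AK119ub at 9 (56.25%, near the 46.6% of all genes) and H3K27me3 at 8 (50%, against 27.1%). H3K4me3 was at 6, MYC at 3, and KDM2B and H3K27ac at 2. KCNJ1, KCNJ2, KCNJ3, KCNJ8, KCNJ13 and KCNJ16 had no peak at an end. KCNJ10, the main inward rectifier of glia, had the highest H2AK119ub fold of all channel genes, 5.66 (percentile 99.8), and an H3K27me3 fold of 6.40. Its H3K4me3 was 7.52 and its MYC 1.99. KCNJ11, the pore of the ATP-sensitive channel of beta cells, had KDM2B of 3.34, MYC of 7.31, H3K4me3 of 21.2, H2AK119ub of 4.24 and H3K27me3 of 4.76, and its neighbour ABCC8 had the same 3 histone folds. KCNJ5, for a G-protein-gated channel, had KDM2B of 3.24 with H3K4me3 of 14.2. KCNJ14 had H3K4me3 of 12.7 at the far end, in a peak within 1 kb of CYTH2, and 2.42 at its start. KCNJ15 had H3K4me3 of 2.28 and H3K27ac of 2.72 and no Polycomb mark.

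Two-pore-domain channels carry the background leak, and 15 were present. H2AK119ub was at 12, H3K27me3 at 11, H3K4me3 at 7, MYC at 6, H3K27ac at 5 and KDM2B at 4. KCNK1 had an H3K4me3 fold of 59.3 (percentile 93.1), MYC of 8.85 and H3K27ac of 10.5. KCNK4 had H3K4me3 of 45.8 and H3K27ac of 28.3 in peaks that also reached other genes. KCNK5, for an acid-sensitive leak channel, had H3K27me3 of 6.69, second to KCNIP1 among the channel genes, and KCNK16 and KCNK17 shared a peak of 6.11. KCNK15 had all 6 targets, with KDM2B of 3.95, MYC of 11.1, H3K4me3 of 20.3, H3K27ac of 3.14, H2AK119ub of 3.68 and H3K27me3 of 5.61. KCNK2 had no peak at an end.

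The 15 auxiliary subunits had the lowest shares of both Polycomb marks among the 6 role groups, a difference that was not tested. H2AK119ub was at 8 (53.3%, near the 46.6% of all genes) and H3K27me3 at 6 of 15 (40%, against 27.1%). H3K4me3 was at 5, H3K27ac at 3, and MYC and KDM2B at 2. KCNAB2 had H3K4me3 of 52.0, MYC of 15.7 and H3K27ac of 16.1, each in a peak also within 1 kb of NPHP4. KCNAB3 had H3K4me3 of 47.3 in a peak within 1 kb of CNTROB and TRAPPC1. KCNMB4, a beta subunit of the large-conductance channel in neurons, had KDM2B of 3.34, MYC of 10.1 and H3K4me3 of 38.6. KCNIP1, which binds Kv4 channels, had the highest H3K27me3 fold of all channel genes, 7.14 (percentile 99.3). KCNMB1, the beta subunit of smooth muscle, had 6.14. KCNAB1, KCNE1, KCNE4, KCNIP4, KCNMB2 and KCNMB3 had no peak at an end, though KCNE1, KCNIP4 and KCNMB3 had 1 at an internal start.

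Over whole records the Polycomb marks covered much of many channel genes. With 1 kb added on each side, H3K27me3 peaks covered a median of 22.8% of a channel gene (quartiles 0% and 69.8%), against 0% over all genes. H2AK119ub peaks covered a median of 24.7% (quartiles 0.710% and 60.2%), against 1.52%. H3K27me3 covered at least 50% of 33 channel genes (35.5%, against 13.5% of all genes) and at least 90% of 13 (against 3.50%). H2AK119ub covered at least 50% of 33 (35.5%, against 12.2%) and at least 90% of 1, against 0.988% of all genes. KCNA10 and KCNK16 were covered by H3K27me3 over 100%, KCNK5 over 99.4%, KCNG1 over 99.1% and KCNK17 over 98.9%. In bp, H3K27me3 covered most in KCNIP1 (333144 bp), KCNQ1 (270467 bp), KCNMA1 (213748 bp), KCND3 (210681 bp) and KCNN2 (198199 bp). H2AK119ub covered 87.5% of KCNH2, 85.1% of KCNG1, 84.7% of KCNK17 and 83.0% of KCNK16. In bp it covered most in KCNQ1 (238508 bp), KCNIP1 (178931 bp), KCND3 (119715 bp), KCNN3 (98807 bp) and KCNT1 (79010 bp).

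**Figure D3:**
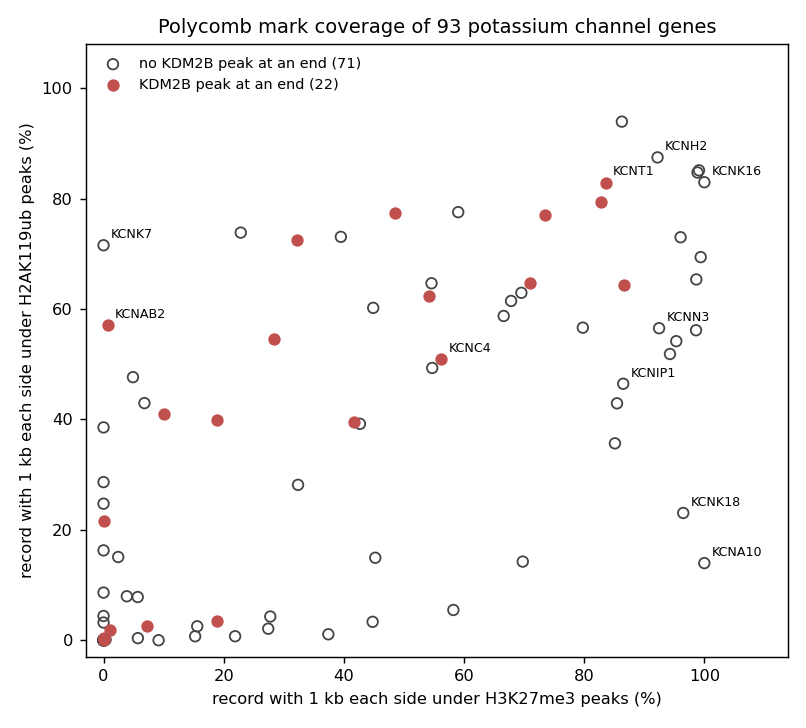
Each point is a potassium channel gene, with the percent of its record and 1 kb each side under H3K27me3 peaks on the horizontal axis and under H2AK119ub peaks on the vertical axis; filled points have a KDM2B peak at an end. Points spread from 0% for both marks to KCNK16 at 100% and 83.0%, and the filled points lie below 90% of H3K27me3.

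Coverage differed with the length of the gene. Channel genes had a median length of 40699 bp, against 24476.5 bp over all genes, and the longest was KCNIP4 at 1220167 bp. Among the 23 longest channel genes, from 146805 bp up, the median H3K27me3 coverage was 0.200%. It was 27.4% in the 23 genes from 40699 to 146805 bp, 54.7% in the 23 from 12232 to 40699 bp and 9.63% in the 24 shortest, so it did not follow length in 1 direction. Over all genes it was 0% in each class. H2AK119ub covered a median of 0.155% of the longest channel genes, against 0.227% of all genes of that length. It was in 69.6% of those channel records, against 65.9%. In the shorter classes, in the same order, its median coverage was 28.1% against 0.373%, 51.8% against 2.55% and 39.8% against 12.7%. Shares of genes with a peak anywhere in the record are given beside all genes and beside the 7031 genes at least as long as the median channel gene, since a long record can meet a peak by its length. H3K27me3 was found in 68 channel records (73.1%, against 33.0% and 32.8%) and H2AK119ub in 79 (84.9%, against 60.2% and 58.4%). H3K4me3 was in 62 (66.7%, against 78.0% and 90.5%), MYC in 50 (53.8%, against 73.7% and 86.2%), H3K27ac in 50 (53.8%, against 72.6% and 86.4%) and KDM2B in 34 (36.6%, against 54.7% and 65.7%). Within length classes the gaps differed. From 40699 to 146805 bp MYC was in 87.0% of channel records, against 86.1% of all genes of that length, and H3K4me3 in 87.0%, against 89.2%. In the longest class MYC was in 56.5%, against 86.6%, and H3K4me3 in 78.3%, against 93.5%. In the shorter classes MYC was in 43.5%, against 77.3%, and in 29.2%, against 61.9%.

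Neighbouring channel genes lay in shared H3K27me3 domains and are not independent. With H3K27me3 peaks merged across gaps of up to 3 kb, KCNA10, KCNA2 and KCNA3 lay in a domain of 467056 bp on chromosome 1 (110413797 to 110880852). KCNK5, KCNK16 and KCNK17 shared 300856 bp on chromosome 6 (39116577 to 39417432), and KCNA1, KCNA5 and part of KCNA6 shared 256277 bp on chromosome 12 (4827510 to 5083786). KCNIP1 and KCNMB1 shared 237510 bp on chromosome 5. From KCNK5 to KCNK16, a stretch of 136.0 kb, H3K27me3 covered 97.8% and H2AK119ub 57.3%, and KDM2B had no peak. From KCNA10 to KCNA3, 159.7 kb, H3K27me3 covered 89.8% and H2AK119ub 42.9%, and KDM2B, MYC and H3K27ac had no peak. KCNC4 ended 233.1 kb below KCNA10 on the same chromosome and had KDM2B, MYC, H3K4me3 and H3K27ac over its start. No H3K27me3 peak lay within 1 kb of that start, while H3K27me3 covered 56.2% of the record and had a fold of 4.14 at the other end.

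**Figure D4:**
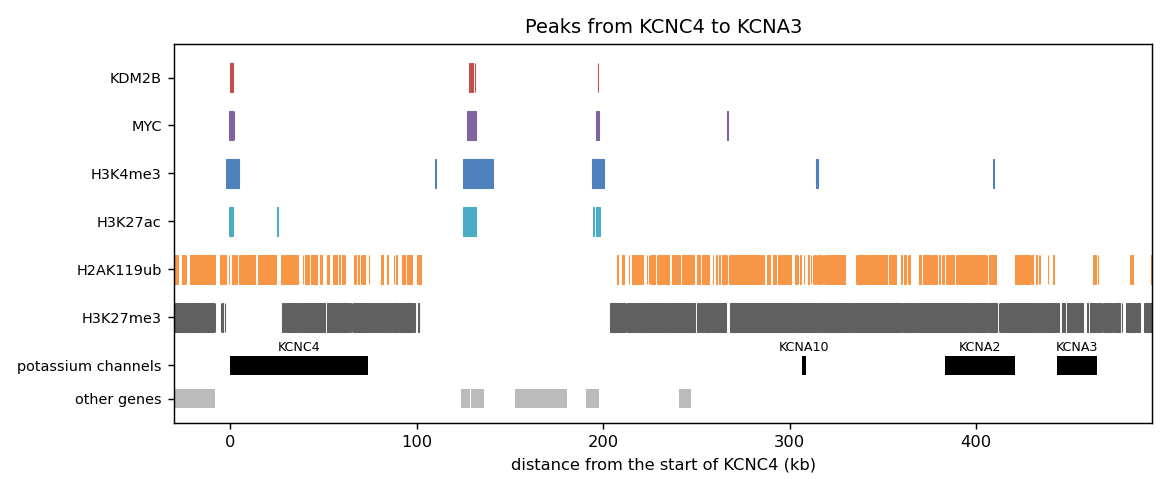
Peaks of the 6 lists (coloured blocks, 1 row per target) along chromosome 1 from KCNC4 to KCNA3, with distance from the start of KCNC4 in kb on the horizontal axis; black blocks are potassium channel genes and grey blocks other protein-coding genes. KDM2B, MYC, H3K4me3 and H3K27ac meet at the start of KCNC4 at 0 kb, and from KCNA10 at 306.9 kb to KCNA3 the H3K27me3 row is nearly filled with no KDM2B or MYC peak.

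Some long genes had many peaks inside and none of the same target at an end. KCNMA1 had 62 H3K27ac peaks over 88912 bp with a highest fold of 52.2, 24 MYC peaks with a highest fold of 20.1 and 18 H3K4me3 peaks with a highest fold of 11.6. The same record held 148 H3K27me3 peaks, and 1 KDM2B peak of fold 2.76. KCNAB1 had 19 H3K27ac peaks with a highest fold of 16.7 and no target at an end. KCNQ1 had 23 MYC peaks and 6 KDM2B peaks, the most KDM2B peaks of any channel record. The KDM2B peak of highest fold in it, 3.92 at 2532978 to 2534325 on chromosome 11, overlapped MYC of 14.6 and H3K27ac of 19.6 and no Polycomb mark. Another at 2700278 to 2700779, with H3K4me3 of 37.5, H3K27ac of 21.4 and an H2AK119ub peak as well, began 284 bp above the upper end of KCNQ1OT1, an imprinted antisense RNA whose record lies inside KCNQ1. Of the 49 KDM2B peaks anywhere in channel records, 30 overlapped H2AK119ub (61.2%, against 25.6% over the records of all genes) and 14 overlapped H3K27me3 (28.6%, against 3.75%).

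CpG content was examined because KDM2B binds CpG. The RefSeq start windows of 300 bases, 250 before the outermost start and 50 after it (assembly GRCh38.p14), held a median of 19 CpG in the 69 channel genes, against 22 over all genes with a start. Among the 13 channel genes with KDM2B within 1 kb of that start the median was 32 CpG, with a range of 16 to 53, against 29 over all such genes. With H3K4me3 and no KDM2B it was 21.5 in 12 channel genes, against 20. With a Polycomb mark and neither KDM2B nor H3K4me3 it was 21 in 28 channel genes, with a range of 3 to 54, against 7 over all genes of that class. With none of these it was 6 in 16 channel genes, against 3. Thus CpG-rich starts were found in every class: KCNMA1 had 54 CpG with H2AK119ub alone within 1 kb of its start, KCNIP4 47 and KCNJ2 39 with none of these targets.

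**Figure D5:**
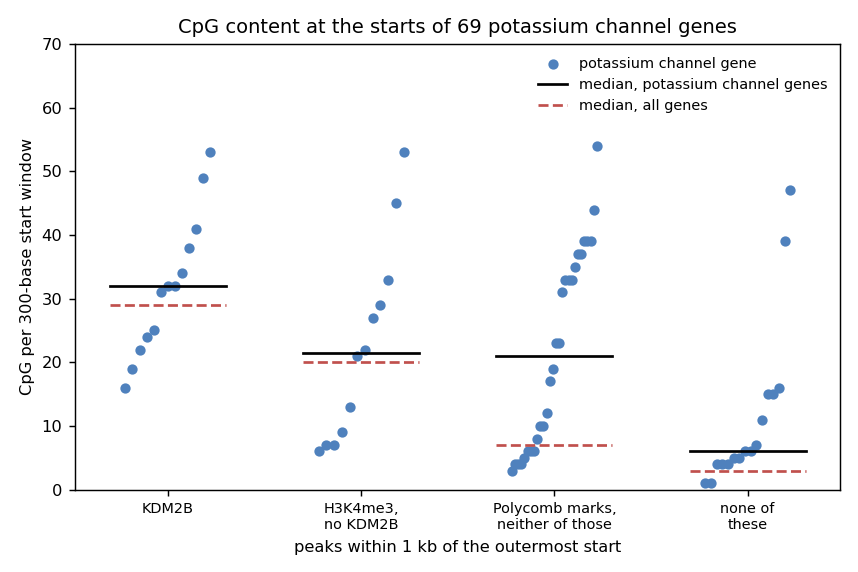
CpG dinucleotides in the 300-base start window (vertical axis) of 69 potassium channel genes, each a point, by the peaks within 1 kb of the outermost start (horizontal axis, 4 classes); black lines are medians of the channel genes and dashed red lines those of all genes. The 13 starts with KDM2B hold 16 CpG or more, while the 28 starts with Polycomb marks and neither KDM2B nor H3K4me3 run from 3 to 54.

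The 250 bases before the start are printed for 7 genes of different classes, 5′ to 3′ on the strand of the gene, with CpG in capitals. KCNC4 (chr1:110210064-110210313, plus strand) and KCNQ5 (chr6:72621814-72622063, plus strand) had KDM2B and H2AK119ub, and KCNK1 (chr1:233613856-233614105, plus strand) had KDM2B and no Polycomb mark. KCNK5 (chr6:39229476-39229725, minus strand) and KCNA10 (chr1:110519176-110519425, minus strand) had both Polycomb marks and no KDM2B. KCNJ2 (chr17:70169282-70169531, plus strand) and KCNC2 (chr12:75209840-75210089, minus strand) had no peak within 1 kb of the start. These stretches held 36 CpG at KCNC4, 18 at KCNQ5, 30 at KCNK1, 31 at KCNK5, 3 at KCNA10, 32 at KCNJ2 and 3 at KCNC2.
KCNC4: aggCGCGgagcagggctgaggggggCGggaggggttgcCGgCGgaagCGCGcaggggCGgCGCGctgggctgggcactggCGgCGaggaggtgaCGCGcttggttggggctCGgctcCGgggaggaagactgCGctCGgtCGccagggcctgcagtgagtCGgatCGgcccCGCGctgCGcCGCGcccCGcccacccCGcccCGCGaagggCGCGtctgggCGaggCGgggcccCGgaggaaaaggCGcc
KCNQ5: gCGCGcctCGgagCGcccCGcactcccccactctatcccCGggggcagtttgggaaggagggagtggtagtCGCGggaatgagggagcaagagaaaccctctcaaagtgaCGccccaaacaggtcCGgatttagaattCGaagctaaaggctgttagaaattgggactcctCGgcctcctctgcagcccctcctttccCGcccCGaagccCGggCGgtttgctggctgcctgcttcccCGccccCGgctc
KCNK1: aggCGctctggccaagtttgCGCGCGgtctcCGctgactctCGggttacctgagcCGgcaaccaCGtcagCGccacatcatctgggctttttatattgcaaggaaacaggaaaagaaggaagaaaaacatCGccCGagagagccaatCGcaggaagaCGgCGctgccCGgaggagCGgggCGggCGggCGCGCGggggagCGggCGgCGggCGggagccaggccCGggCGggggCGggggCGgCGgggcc
KCNK5: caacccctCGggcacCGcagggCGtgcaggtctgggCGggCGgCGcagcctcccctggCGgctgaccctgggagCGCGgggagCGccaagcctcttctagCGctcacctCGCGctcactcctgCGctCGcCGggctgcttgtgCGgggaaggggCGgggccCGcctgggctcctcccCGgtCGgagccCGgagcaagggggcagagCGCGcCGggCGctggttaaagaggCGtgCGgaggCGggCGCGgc
KCNA10: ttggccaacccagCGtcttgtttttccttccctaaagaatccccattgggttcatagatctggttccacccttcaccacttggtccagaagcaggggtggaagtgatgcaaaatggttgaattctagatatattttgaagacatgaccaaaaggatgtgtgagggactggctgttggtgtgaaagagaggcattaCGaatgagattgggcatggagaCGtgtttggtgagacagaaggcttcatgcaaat
KCNJ2: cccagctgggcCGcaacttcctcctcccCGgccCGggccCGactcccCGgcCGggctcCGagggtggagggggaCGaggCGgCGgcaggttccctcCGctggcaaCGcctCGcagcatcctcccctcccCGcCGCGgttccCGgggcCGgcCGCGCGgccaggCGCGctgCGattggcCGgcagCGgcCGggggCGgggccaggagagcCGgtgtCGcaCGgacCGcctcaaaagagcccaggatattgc
KCNC2: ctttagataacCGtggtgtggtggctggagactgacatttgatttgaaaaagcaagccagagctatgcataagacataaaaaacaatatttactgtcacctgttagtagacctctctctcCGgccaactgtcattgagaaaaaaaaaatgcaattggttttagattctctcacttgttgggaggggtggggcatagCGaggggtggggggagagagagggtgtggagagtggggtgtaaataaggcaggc

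The E-box CACGTG, a motif that MYC binds and that reads the same on both strands, was searched in the 300-base windows. It was in 3 of the 69 channel windows (4.35%), at KCNH4, KCND2 and KCNN4, and in 8.71% of all windows. Of the 16 channel genes with MYC within 1 kb of the outermost start, KCNN4 had it, and over all genes with MYC there the share was 10.5%. The window of KCNQ5, which had the highest MYC fold, did not hold these letters.

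Other genes of potassium transport were counted in the same way, and their counts stand beside the shares of all genes given above (H2AK119ub 46.6%, H3K27me3 27.1%, MYC 65.0%, H3K4me3 70.1% and KDM2B 48.3%). Of 10 genes for pumps that exchange potassium for sodium or protons, 9 had H2AK119ub, 6 H3K27me3, 6 MYC, 5 H3K4me3 and 4 KDM2B, so MYC and KDM2B were near those shares. The sodium pump genes ATP1B1 and ATP1B3 had MYC folds of 21.3 and 21.6 with KDM2B and no H3K27me3. Of 7 cation-chloride cotransporters, 4 had MYC, H3K4me3 and H2AK119ub, 3 had H3K27me3, and SLC12A2 and SLC12A4 had KDM2B. Of 15 channel partners and related genes, 11 had H2AK119ub, 8 H3K4me3, 7 MYC, 6 H3K27me3 and 5 KDM2B. ABCC8, the partner of KCNJ11, was covered by H3K27me3 over 94.5% of its record. REST, which represses neuronal genes, and its partners RCOR1, SIN3A, HDAC1 and HDAC2 all had KDM2B, MYC, H3K4me3 and H3K27ac at an end and no H3K27me3. The 39 voltage-gated sodium and calcium channel genes had shares near those of the potassium channels: H2AK119ub at 31 (79.5%), H3K27me3 at 27 (69.2%), H3K4me3 at 16 (41.0%), MYC at 11 (28.2%), KDM2B at 10 (25.6%) and H3K27ac at 9 (23.1%). The median H3K27me3 coverage of those 39 was 61.8%, against 22.8% of the potassium channels, and the difference was not tested.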

How the data were processed

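The titles give antibody and cell stock, which put 18 libraries in 9 groups of 2. Whether the 2 libraries of a group were separate cultures is not stated. Chromatin was digested enzymatically, per the labels' protocols, and a narrow-peak caller can split broad domains. The build was hg38 and the named tools MACS2 2.2.7.1, SAMtools 1.6, Bowtie2 2.4.5 and Trim Galore, per the submitters' processing notes. Not given in the sources used here: which control was used and whether libraries were pooled for calling. Each deposited list gives a score, the authors' fold over background, −log10 p and −log10 q values, and a summit offset in bp. The score and p were not used. The highest q was 0.0500 or below in every list.

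Gene records and starts came from RefSeq (GRCh38.p14, the same build). Python 3.11.15 with pandas 2.3.3 was used. A target counted at a gene when at least 1 bp of a peak lay within 1 kb of either end, and coverage is the share of the record with 1 kb each side under peaks. Overlap counting was tested on simulated data, where 200 of 200 planted peaks were recovered. Counts are descriptions beside the share of all genes, without a test. The members and lists were chosen with earlier results of these data known. Named genes were, by rule, the 5 of highest fold per target (10 for KDM2B), the 5 most covered by each Polycomb mark, the 3 of highest H3K4me3 fold per role group, and all of any count of 5 or fewer. Other names were chosen after their values were seen, as were the 7 printed sequences. A few genes that the rule would name are not reported here by name, though they count in every total, and the plot of peaks by gene leaves 4 of them out. The promoter table held starts for 69 of the 93 genes. MSN and SYP, markers on chromosome X, were outside the chromosomes used. Alternatives were windows of 500 and 2500 bp, summits in place of peaks, only peaks with q under 1e-05, only the top 15000 by fold, at least 50% of a peak inside, starts only, 1 gene per set of overlapping windows, merged peaks and no flank.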

Additional observations from a re-analysis of the deposited data

How the results depend on the processing

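Of 130 alternative values, 96 stayed within the 95% Wilson interval of the reported share (for coverage, within 1.5 times) and 34 moved outside. Under each of the 9 settings run over all genes, shares of channel genes with KDM2B, MYC, H3K4me3 and H3K27ac at an end were below those of all genes and shares with H2AK119ub and H3K27me3 above. No paired analysis was possible because the lists do not resolve libraries, and no replicate could be left out for the same reason. The cause of the moves was not tested beyond the settings' own construction, fewer peaks or a narrower window.

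In what follows the share of all genes at the same setting stands after each share of channel gene ends. With windows of 500 bp H2AK119ub was at 65.6% (40.1%). With q under 1e-05 it was at 55.9% (29.7%) and both Polycomb marks at 44.1% (14.4%). When each list was kept to its top 15000 peaks by fold, H2AK119ub was at 28.0% (11.2%), H3K27me3 at 23.7% (6.63%), H3K4me3 at 26.9% (63.9%), MYC at 16.1% (54.3%), H3K27ac at 6.45% (48.1%), both Polycomb marks at 15.1% (2.76%), H3K4me3 with H3K27me3 at 2.15% (0.868%) and no peak at 43.0% (26.0%). With summits H3K4me3 was at 34.4% (61.1%), H3K27me3 at 49.5% (22.2%), both Polycomb marks at 43.0% (16.6%) and H3K4me3 with H3K27me3 at 15.1% (6.25%). At the start end of the record KDM2B was at 15.9% (48.7%), MYC at 20.3% (64.7%), H3K27me3 at 46.4% (20.0%), both Polycomb marks at 43.5% (15.6%) and H3K4me3 with H3K27me3 at 15.9% (4.50%). At any RefSeq start (chosen after seeing the data) the last 3 were 46.4% (20.8%), 44.9% (16.7%) and 15.9% (5.59%). For whole records only channel genes were recomputed. With q under 1e-05 KDM2B was in 21.5% of records and H2AK119ub in 67.7%, and median coverage was 7.82% for H2AK119ub and 12.2% for H3K27me3. With the top 15000 peaks H2AK119ub was in 44.1% of records, H3K27me3 in 34.4%, H3K4me3 in 35.5%, MYC in 26.9% and H3K27ac in 18.3%. Merging peaks across 3 kb raised median coverage to 60.3% for H2AK119ub and 45.2% for H3K27me3. Without peaks near another gene's end, also chosen after seeing the data, no peak was left at 18.3% of channel genes and 21.0% of all genes. That was the reverse of the reported order. KDM2B was then at 18.3% and 34.6%, MYC at 23.7% and 46.7%, and H3K27ac at 19.4% and 45.4%. H3K4me3 was at 37.6% and 47.0%, much closer together than the reported 44.1% and 70.1%.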
